A study of Mus musculus with 4 samples.

Results

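The enzymes that write, copy, erase and read DNA methylation were followed in cultured mouse liver tumour cells through 8 genes: Dnmt1, Uhrf1, Dnmt3a, Dnmt3b, Tet1, Tet2, Tet3 and Mbd2. They were taken by their symbols from a deposited expression table of 23359 rows, in which each had 1 row. The cells were tumour-initiating stem-like cells isolated from liver tumours of C57BL/6 mice and grown in a medium with serum, EGF and dexamethasone. One culture received vehicle, one 5 µg/ml of all-trans retinoic acid (ATRA, a ligand of retinoic acid receptors), one 0.5 µg/ml of suberoylanilide hydroxamic acid (SAHA, or vorinostat, which blocks histone deacetylases), and one both compounds, whose doses in the combination the labels do not repeat. Treatment with the compounds lasted 16 hours. The sources used here do not say how many tumours or animals the cells came from, what the vehicle was or how long it was applied. With 1 library in each of the 4 groups, the differences below carry neither an error nor a p-value, and nothing measured here shows how far repeat cultures would vary. RNA levels were measured. DNA methylation itself and the proteins were not.

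In mammals, methyl groups sit mainly on cytosines that are followed by guanine, called CpG sites. DNMT3A and DNMT3B place them on unmethylated DNA. DNMT1 copies them onto the new strand after replication, guided by UHRF1, which binds the hemimethylated sites that replication leaves. The 3 TET enzymes oxidize methylcytosine with oxygen and 2-oxoglutarate, a first step of its removal. MBD2 binds methylated CpG sites and brings in the NuRD complex, which contains the histone deacetylases HDAC1 and HDAC2, both inhibited by SAHA. In liver tumours, altered DNA methylation is a well-known feature.

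Levels are in FPKM, which divides the fragments of a gene by its transcript length and by the library's depth, and so can be compared between genes of different length. Positions are the table's loci, each holding the exons, introns and UTRs of a protein-coding gene, and for Tet1 and Tet3 they end short of the longest GENCODE M21 model. Differences are given as FPKM ratios and as differences in log2(FPKM + 1). A gene was counted where its mean over the 4 libraries was at least 1 FPKM, and called higher or lower where log2(FPKM + 1) differed by 1 or more, which is 2-fold on that scale. Of the 8 genes, 3 were counted (Dnmt1, Uhrf1 and Mbd2). The other 5 (Dnmt3a, Dnmt3b, Tet1, Tet2 and Tet3) lay under the filter, where adding 1 to the FPKM hides most of a change, so their FPKM ratios are given. From the smallest steps between low values, a level of 1 FPKM was estimated to rest on 94.6 to 103 fragments per kilobase of transcript. None of 8 hepatocyte markers reached a mean of 1 FPKM (Afp was the highest, at 0.165), while 5 of 8 mesenchymal markers (Vim was the highest) and 3 of 5 bile duct markers did. Markers of endothelial, lymphoid and red blood cells were all under a mean of 1 FPKM, and Cd68 was the only macrophage marker above it, with 1.89 FPKM in vehicle and 5.20 with SAHA. Gm20594, a predicted gene, took 33.9% of all FPKM in the SAHA library and 10.3% to 18% in the others. In bulk RNA, fewer cells of a type and less RNA per cell cannot be told apart.

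Both genes of the maintenance pair were well measured. Dnmt1 (chromosome 9, 20907206 to 20959888, mm10, minus strand) stood at 8.54 FPKM under vehicle, 9.08 under ATRA, 5.51 under SAHA and 7.55 under both compounds. Uhrf1 (chromosome 17, 56303337 to 56323486, plus strand) stood at 7.20, 6.86, 2.99 and 3.47 FPKM in the same order. As deposited, both genes were lowest in the SAHA library. When libraries were rescaled to a common total without small RNAs and Gm20594, both were lowest with both compounds. Dnmt1 was then at 0.817 and Uhrf1 at 0.692 of the level with SAHA. Under both compounds the values as deposited put Dnmt1 at 0.884 of its vehicle level and Uhrf1 at 0.482. After rescaling these ratios were 0.749 and 0.408. The FPKM ratio of Dnmt1 to Uhrf1 was 1.19 under vehicle, 1.32 under ATRA, 1.84 under SAHA and 2.18 under both. Dnmt1 was above 89.8% to 92.8% of all rows in each library, and Uhrf1 above 82.1% to 91.1%.

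Windows around annotated starts of Dnmt1 and Uhrf1 are shown because, of the 7 genes with windows, these were the ones that held letters of the kind bound by E2F factors, which drive genes of S phase. Whether these letters bear on the levels was not tested. Each window runs from 250 bases before to 50 bases after a start (RefSeq, GRCm38.p6). The capitals mark E2F-type letters, on either strand, which are GCGGGAA, or the letters GCGCGAA, or the letters GCGCCAA. The Dnmt1 window is the third of 3 annotated starts (chr9:20952574-20952873, minus strand) and holds 3 matches, and the Uhrf1 window is the second of 2 (chr17:56304063-56304362, plus strand) and holds 1.
Dnmt1: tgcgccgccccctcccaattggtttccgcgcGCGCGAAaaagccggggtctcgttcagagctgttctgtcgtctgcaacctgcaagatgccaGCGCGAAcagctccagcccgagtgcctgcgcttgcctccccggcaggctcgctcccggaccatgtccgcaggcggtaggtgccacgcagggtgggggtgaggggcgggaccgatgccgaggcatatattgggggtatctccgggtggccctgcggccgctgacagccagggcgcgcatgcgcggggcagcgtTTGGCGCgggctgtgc
Uhrf1: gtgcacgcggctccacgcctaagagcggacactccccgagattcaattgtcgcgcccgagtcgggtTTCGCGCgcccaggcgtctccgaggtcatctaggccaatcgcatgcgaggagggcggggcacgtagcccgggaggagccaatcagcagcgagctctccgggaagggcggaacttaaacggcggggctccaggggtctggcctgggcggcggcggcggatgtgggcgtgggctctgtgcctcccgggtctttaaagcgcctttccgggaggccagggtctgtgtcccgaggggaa
Of 32851 such windows of all genes, 8.07% held E2F-type letters, and of the 12 windows of 7 genes here, 3 did, all of them of Dnmt1 or Uhrf1. Windows of Mbd2 were not used here. CCAAT was found in windows of Dnmt1, Uhrf1 and Tet3 (37.4% of all windows), the GC box GGGCGG in windows of all 7 genes (35.7%), the cell cycle element TTTGAA in windows of Dnmt1 and Dnmt3b (17.9%), the E-box CACGTG in 1 window of Dnmt3a (7.15%), and the nuclear receptor half-site AGGTCA in windows of Uhrf1, Dnmt3a and Tet1 (16.3%). Both strands were searched, and matches of different motifs may overlap. A match says only that these letters are there, and the expression table does not tell which start was used. The Tet1 window (chr10:62887275-62887574, minus strand) lies upstream of the Tet1 locus used for the levels, which ends at 62880014.

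The de novo enzymes were at low levels. Dnmt3a (chromosome 12, 3806980 to 3914443, plus strand) stood at 0.384 FPKM under vehicle, 0.468 under ATRA, 0.0757 under SAHA and 0.0742 under both compounds. Both libraries without SAHA were high and both with SAHA were low. By the estimate of depth, and with transcripts of 5424 to 9685 bases, these levels stood for about 200 to 360 fragments under vehicle, 240 to 430 under ATRA, 40 to 71 under SAHA and 41 to 74 under both. The row Gm10485 overlaps this locus and was at 0.0162 to 0.0309 FPKM. Dnmt3b (chromosome 2, 153649449 to 153687730, plus strand) stood at 0.0505, 0.0437, 0.0696 and 0.0442 FPKM, about 15 to 29 fragments in any library. No direction is read from so few fragments. Dnmt1 held 95.2% of the summed FPKM of the 3 methyltransferase genes under vehicle, 94.7% under ATRA, 97.4% under SAHA and 98.5% under both.

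The first annotated start of Dnmt3a lies in DNA dense in CpG sites, the substrate of its own enzyme, and is printed to show this, with each CG in capitals (chr12:3806730-3807029, plus strand, GRCm38.p6).
Dnmt3a: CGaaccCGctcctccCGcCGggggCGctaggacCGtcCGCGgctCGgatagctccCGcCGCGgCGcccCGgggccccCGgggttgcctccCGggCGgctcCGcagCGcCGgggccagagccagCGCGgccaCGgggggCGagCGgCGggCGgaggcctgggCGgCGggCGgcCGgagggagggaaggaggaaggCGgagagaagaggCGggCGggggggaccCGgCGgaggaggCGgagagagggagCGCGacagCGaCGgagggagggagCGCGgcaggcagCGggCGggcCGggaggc
This window holds 46 CG dinucleotides, more than 98.4% of all windows, whose median is 7. The other windows of Dnmt3a hold 47 and 18. The single Tet2 window holds 57, more than 99.8% of all windows. Dnmt1 ranges widely over its 3 starts, with 2, 12 and 33, and Uhrf1 has 12 and 33. Dnmt3b has 30, Tet3 22 and Tet1 17, the last in a window outside its measured locus.

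**Figure D1:**
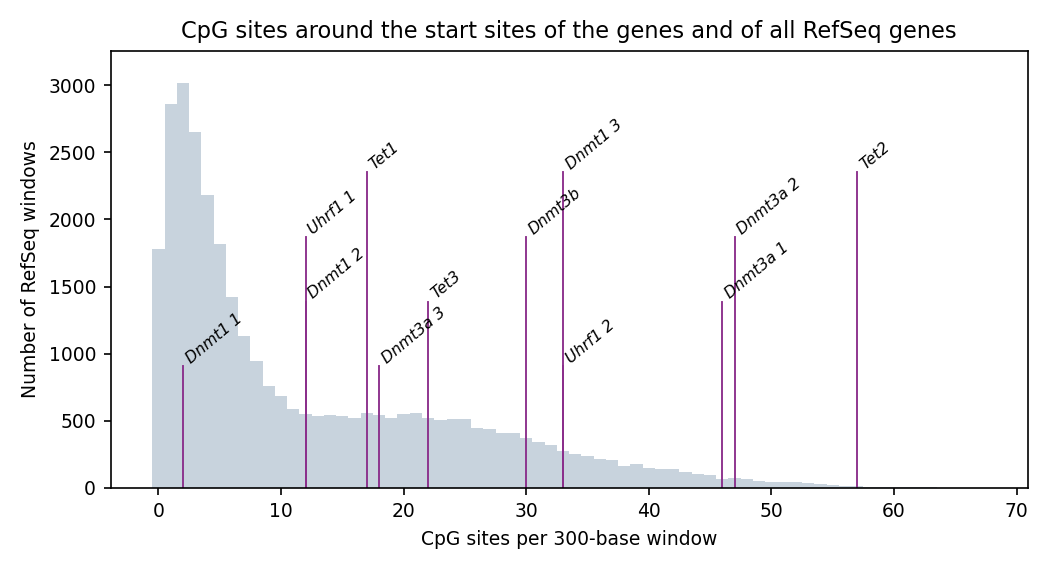
Number of CpG sites in 300-base windows around annotated starts (horizontal axis) against the number of RefSeq windows with that many (vertical axis, grey bars, all genes). Purple lines mark the 12 windows of 7 genes, numbered in the direction of transcription where a gene has several; line heights carry no value. Of the windows, 11 lie above the median of 7, and the first Dnmt1 window lies at 2.

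Of the erasers, Tet2 and Tet3 were measurable and Tet1 was hardly detected. Tet2 (chromosome 3, 133463677 to 133544390, minus strand) stood at 0.696 FPKM under vehicle, 0.515 under ATRA, 0.321 under SAHA and 0.258 under both compounds. Tet3 (chromosome 6, 83362374 to 83441678, minus strand) stood at 0.445, 0.340, 0.421 and 0.226 FPKM. Tet2 was lower in every treated library than with vehicle, whereas Tet3 with SAHA alone was near its vehicle level and was lowest with both compounds. Tet2 was above Tet3 with vehicle, at 1.56 times its level, and below it with SAHA, at 0.762 times. Tet1 (chromosome 10, 62804570 to 62880014, minus strand) stood at 0.0149, 0.00956, 0.00930 and 0.00911 FPKM, about 13 to 21 fragments. The summed FPKM of the 3 Tet genes was 1.16 under vehicle, 0.865 under ATRA, 0.751 under SAHA and 0.493 under both. The methyltransferase sum was 7.76 times the Tet sum with vehicle, 11.1 times with ATRA, 7.54 times with SAHA and 15.6 times with both.

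The reader Mbd2 (chromosome 18, 70568292 to 70626131, plus strand) had the highest level of the 8 genes in 3 of the 4 libraries. It stood at 11.9 FPKM under vehicle, 10.5 under ATRA, 5.89 under SAHA and 6.57 under both compounds, where Dnmt1 was above it. As deposited, its 2 libraries with SAHA were low and its 2 without were high. This split did not hold after rescaling without small RNAs and Gm20594. Mbd2 was then at 0.776 of its vehicle level with ATRA, 0.704 with SAHA and 0.47 with both compounds. The order of the levels with vehicle was Mbd2, Dnmt1, Uhrf1, Tet2, Tet3, Dnmt3a, Dnmt3b and Tet1. Neighbours in this order cannot be separated by a spread, since each group is 1 library.

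**Figure D2:**
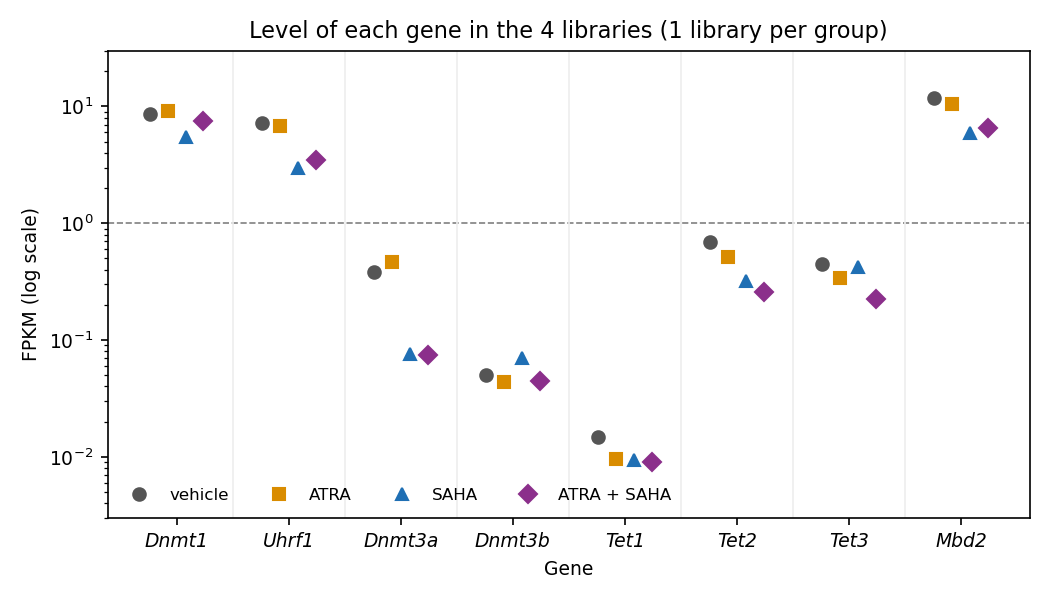
FPKM of each gene (log scale, vertical axis) in the 4 libraries, 1 point per library with no error. Dnmt1, Uhrf1 and Mbd2 lie above the dashed line at 1 FPKM, and the other 5 genes below it; Dnmt3a goes from 0.384 FPKM with vehicle to 0.0757 with SAHA and 0.0742 with both compounds.

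With ATRA alone each of the 8 genes differed from vehicle by less than 2-fold. The FPKM ratios of ATRA to vehicle ran from 0.640 for Tet1, on few fragments, to 1.22 for Dnmt3a. Dnmt1 was 0.08 higher in log2(FPKM + 1), Uhrf1 0.06 lower (-0.06) and Mbd2 0.17 lower (-0.17). The sign of the Dnmt1 difference turned to -0.09 when the libraries were rescaled without small RNAs and Gm20594. None of the 3 counted genes passed the 2-fold mark, against 0.917% of all 8616 counted genes higher and 1.20% lower. By FPKM ratio 0 of the 8 were at 0.5 or less or at 2 or more. Of all rows above 0 in both libraries 7.18% were at 0.5 or less and 8.03% at 2 or more, and of rows with a mean of 0.1 to 1 FPKM 5.81% and 5.22%. Tet2 and Tet3, at 0.739 and 0.765 of their vehicle levels, were both lower, on 350 to 610 estimated fragments.

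With SAHA alone the largest differences were lower levels of Dnmt3a, Uhrf1, Tet2 and Mbd2. Uhrf1, which guides DNMT1 to replicated DNA, was 2.41-fold lower, and Mbd2 2.01-fold lower. Tet2 was 2.17-fold lower and Dnmt3a 5.07-fold lower. Dnmt1 was 1.55-fold lower and Tet3 1.06-fold lower. Dnmt3b, at 1.38 times its vehicle level, and Tet1, at 0.623 times, rest on too few fragments to read a direction. On the log2(FPKM + 1) scale Uhrf1 differed by -1.04, Mbd2 by -0.90 and Dnmt1 by -0.55. So 1 of the 3 counted genes, Uhrf1, was called lower, just past the mark, while 16.0% of all counted genes were called lower and 7.88% higher. By FPKM ratio, 4 of the 8 genes (Uhrf1, Dnmt3a, Tet2 and Mbd2) were at 0.5 or less and 0 at 2 or more. Of all rows above 0 in both libraries 22.3% were at 0.5 or less, and of rows with a mean of 0.1 to 1 FPKM, the range of Dnmt3a, Tet2 and Tet3, 28.3% were. At 2 or more were 18.9% and 20.1% of these rows. A ratio as low as that of Dnmt3a was found in 9.26% of the rows with a mean of 0.1 to 1 FPKM.

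These values also move with the scaling between libraries. When every library was rescaled to a common total without small RNAs and Gm20594, the median of all counted genes went from -0.12 to 0.26 with SAHA. The calls went from 679 higher and 1381 lower to 1586 higher and 865 lower, and with each comparison centred on its median they were 881 and 1157. Under that rescaling Uhrf1 stood at -0.65 and after centring at -0.92, under the 2-fold mark in both, while its FPKM ratio was 0.589 after rescaling and 0.469 after centring on the median ratio. Dnmt3a was still at 0.280 of its vehicle level after rescaling and 0.223 after centring, the only one of the 8 at 0.5 or less after rescaling. Dnmt1 came to 0.916 of vehicle, Mbd2 to 0.704 and Tet2 to 0.654. Tet3 turned from 0.946 to 1.34. Of the 8 mesenchymal markers, 5 had a mean of at least 1 FPKM. The summed level over the list was 631 FPKM under vehicle, 501 under ATRA, 336 under SAHA and 378 under both. Most of it was Vim, at 562 FPKM under vehicle and 319 under SAHA. The bile duct sum was 340, 572, 942 and 436 FPKM, nearly all of it Spp1 (336, 566, 939 and 433). Krt7 did not follow it, at 2.99, 2.88, 1.83 and 2.32 FPKM, nor did Sox9, at 1.19, 2.69, 0.91 and 0.857. Epcam and Krt19 stayed under 1 FPKM in every library. The epithelial sum was 96.7, 118, 70.2 and 46.2 FPKM, and Krt18 made up nearly all of it (95.3, 116, 69.1 and 45.3). Of the mesenchymal markers, Col1a1, Col1a2 and Thy1 did not exceed 0.0416 FPKM in any library. Prrx1, a mesenchymal transcription factor, was at 8.97, 9.02, 0.177 and 0.161 FPKM, low in the same 2 libraries as Dnmt3a. Sparc and Twist1 were also low there, at 2.65 and 0.701 FPKM with SAHA. Fn1 differed less, at 18.9 FPKM with vehicle and 12.8 with SAHA. The part of these markers, and of Gm20594, in the values of the 8 genes was not tested.

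**Figure D3:**
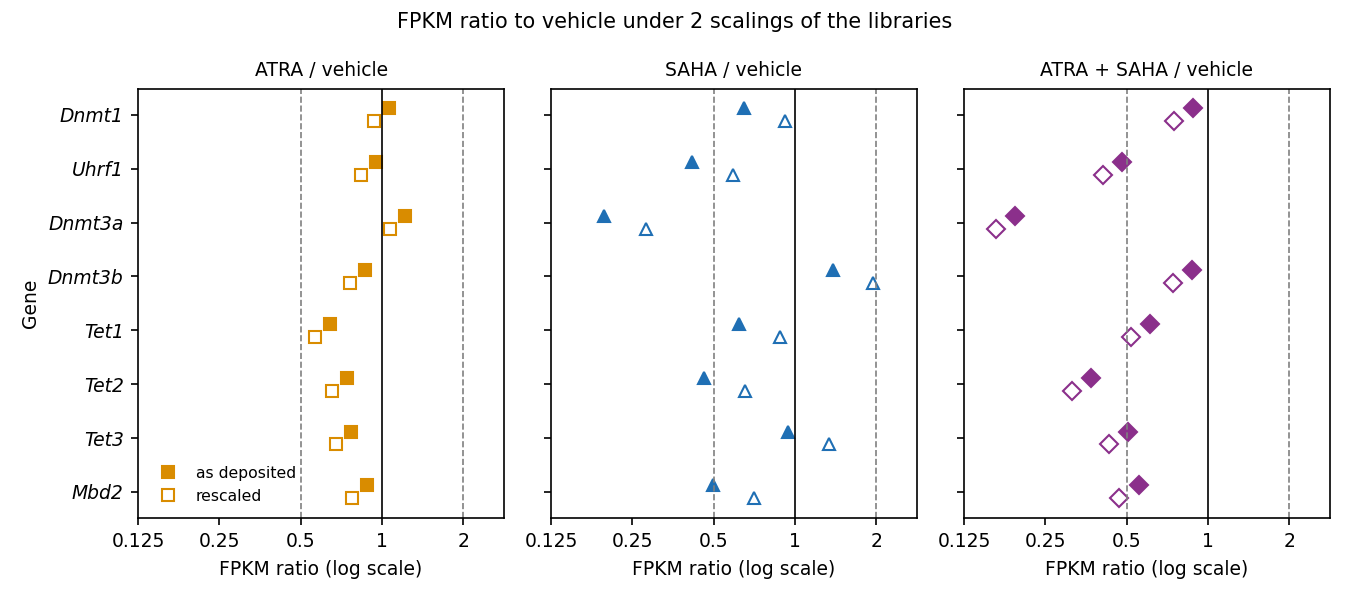
FPKM ratio to vehicle (log scale, horizontal axis) of each gene in the 3 treated libraries, with filled symbols for the values as deposited and open symbols after rescaling without small RNAs and Gm20594; each symbol is 1 library against 1 library. Dashed lines mark ratios of 0.5 and 2. Dnmt3a lies lowest in the panels for SAHA and for both compounds, at 0.197 and 0.193 as deposited.

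Both compounds were then set against vehicle. All 8 genes had a ratio below 1, from 0.193 for Dnmt3a to 0.884 for Dnmt1, beside 50.8% of all rows above 0 in both libraries. Dnmt3a was 5.17-fold lower, Tet2 2.70-fold, Uhrf1 2.08-fold, Tet3 1.97-fold and Mbd2 1.80-fold lower. Dnmt1 was 1.13-fold lower. Tet1 and Dnmt3b, at 0.610 and 0.875 of vehicle, rest on too few fragments to read a direction. None of the 3 counted genes passed the mark in log2(FPKM + 1), with Uhrf1 at -0.88, Mbd2 at -0.76 and Dnmt1 at -0.16. Of all counted genes 12.6% were lower and 11.1% higher (954 higher and 1089 lower, or 638 and 1352 after rescaling). Uhrf1 was past it at -1.03 with a pseudocount of 0.1 and at -1.06 after rescaling. By ratio 3 of 8 genes were at 0.5 or less (Uhrf1, Dnmt3a and Tet2) and 0 at 2 or more, and 5 were at 0.5 or less after rescaling (with Tet3 and Mbd2) and 4 after centring (with Tet3). Of all rows above 0, 21.5% were at 0.5 or less and 19.1% at 2 or more, and of rows with a mean of 0.1 to 1 FPKM 28.9% and 19.9%. This comparison shares its vehicle library with both single treatments.

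The remaining comparisons ask what each compound added to the other. Against SAHA alone, adding ATRA left Dnmt3a at 0.980 of its level and Tet1 at 0.980. Dnmt1 was at 1.37 times, Uhrf1 at 1.16 and Mbd2 at 1.12, and all 3 turned below 1 after rescaling. Tet3 was at 0.537, Dnmt3b at 0.636 and Tet2 at 0.803. None of the 3 counted genes passed the mark, against 3.04% of all counted genes higher and 0.929% lower (262 and 80, or 191 and 111 after centring and 121 and 534 after rescaling). By ratio 0 of the 8 were at 0.5 or less or at 2 or more, against 10.4% and 8.41% of all rows above 0 and 9.40% and 6.61% of rows with a mean of 0.1 to 1 FPKM. At 0.5 or less were 3 after rescaling (Dnmt3b, Tet2 and Tet3) and 1 after centring (Tet3). Against ATRA alone, adding SAHA put Dnmt3a 6.31-fold lower, Tet2 2.0-fold and Uhrf1 1.98-fold lower. Mbd2 was 1.59-fold lower, Tet3 1.51-fold and Dnmt1 1.20-fold lower. Dnmt3b, at 1.01 times, and Tet1, at 0.953, were close to their levels with ATRA. None of the counted genes passed the mark (Uhrf1 stood at -0.82), against 11.9% of all counted genes lower and 10.5% higher. By ratio 1 of the 8, Dnmt3a, was at 0.5 or less and 0 at 2 or more, against 21.4% and 18.5% of all rows above 0 and 27.8% and 20.2% of rows with a mean of 0.1 to 1 FPKM. After rescaling or centring 3 were at 0.5 or less (Uhrf1, Dnmt3a and Tet2).

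If the 2 compounds acted additively on the log scale, the combination would equal the sum of the single differences. Dnmt1 stood 0.31 above that sum, Mbd2 0.30 and Uhrf1 0.22. For all counted genes the median departure was 0.15, with the middle 90% between -0.60 and 0.98. The 3 values lie inside that range. After rescaling they were -0.17, -0.18 and -0.19 (Dnmt1, Mbd2 and Uhrf1), beside a median of -0.27 and a range of -1.05 to 0.59 for all counted genes. None of these 3 genes departed by 1 or more.

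Of 24 partners of the methyltransferases, 20 were counted. With SAHA 5 of the 20 were called lower and 0 higher, beside 16.0% and 7.88% of all counted genes, and 17 of the 20 were below 0, beside 56.6% of all counted genes. They had differences from vehicle with a median of -0.80 beside -0.12 for all counted genes. Cdca7, which activates the chromatin remodeller HELLS that normal DNA methylation needs, was at 4.68 FPKM under vehicle and 0.963 under SAHA. Its relative Cdca7l was at 3.53 and 0.613 FPKM. Zfp57, a zinc finger protein that keeps imprints methylated, was at 4.01 and 1.03, and Setd2, which makes the H3K36 mark read by the de novo enzymes, at 3.48 and 1.06. Uhrf2, the paralog of Uhrf1, was at 5.13 FPKM with vehicle, 1.65 with SAHA and 5.07 with both compounds, and so differed from Uhrf1 in the combination. Hells itself was at 2.29 FPKM under vehicle, 3.34 under ATRA, 0.820 under SAHA and 1.64 under both. With ATRA alone 0 of the 20 passed the mark. With both compounds 3 were lower (Cdca7, Cdca7l and Zfp57) and 0 higher, beside 12.6% and 11.1% of all counted genes. The median was then -0.41. Only Kdm1a, Pcna and Trim28 averaged 5 FPKM or more, with differences of 0.07, -0.47 and 0.05. The median of 0.05 under that filter rests on these genes alone. The list's median with SAHA was -0.43 after rescaling, when that of all genes was 0.26. Nsd1, an H3K36 methyltransferase under the filter, was at 1.36, 1.20, 0.16 and 0.142 FPKM; its values were known when it was picked. Dnmt3l, the cofactor of the de novo enzymes in germ cells, did not exceed 0.0195 FPKM.

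Other methyl-CpG readers and the NuRD subunits that MBD2 recruits gave 15 counted genes of 21. With SAHA 3 were lower (Cdk2ap1, Zbtb38 and Mta3) and 0 higher, beside 16.0% and 7.88% of all counted genes, with a median of -0.52 beside -0.12. The same 3 were lower with both compounds and 0 higher, beside 12.6% and 11.1% of all counted genes. The median was then -0.17. Zbtb38, a zinc finger reader of methylated DNA, was at 8.13 FPKM under vehicle, 5.78 under ATRA, 0.942 under SAHA and 0.889 under both. Cdk2ap1, a NuRD subunit, was at 21.1, 23.5, 3.40 and 5.40 FPKM. Hdac1, a NuRD deacetylase and target of SAHA, was at 2.95, 2.92, 6.36 and 4.94 FPKM, a difference of 0.90 with SAHA that did not pass the mark. With ATRA alone 0 of the 15 passed the mark.

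Genes that act after oxidation or deamination gave 13 counted genes of 19. With SAHA 1 was higher and 4 lower, with a median of -0.21, beside 7.88% and 16.0% of all counted genes. With both compounds 1 was higher and 3 lower, with a median of 0.10, beside 11.1% and 12.6%. After rescaling these medians were 0.15 and -0.08. Polb, the base excision repair polymerase, was at 2.19 FPKM under vehicle, 1.99 under ATRA, 5.48 under SAHA and 6.81 under both. Apex1, the endonuclease of that pathway, was at 16.7, 12.8, 5.68 and 3.54 FPKM. The deaminase genes Apobec1 and Apobec3 were also lower, with SAHA at 0.10 FPKM against 3.27 under vehicle and at 0.726 against 5.56. Apobec1 passed the filter only through its vehicle value, so its calls as lower carry no weight. Gadd45a, a stress gene linked to active demethylation, was at 8.38, 7.12, 0.876 and 9.06 FPKM, low only in the library with SAHA alone. Tdg, the glycosylase that removes oxidized methylcytosine, was at 1.31, 0.844, 1.66 and 1.5 FPKM. With ATRA alone 0 of the 13 passed the mark.

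Cofactor and methyl donor genes differed between the lists. Among 14 counted genes of the TET cofactor list, SAHA gave 0 higher and 1 lower, beside 7.88% and 16.0% of all counted genes. The list's median was -0.31 beside -0.12 for all counted genes, and 0.13 beside 0.26 after rescaling. Cxxc5, a CXXC protein that can bind TET2, was the lower one, at 4.30 FPKM with vehicle and 1.20 with SAHA. Idh3a, a subunit of the mitochondrial enzyme that makes 2-oxoglutarate, was at 4.66, 4.77, 9.88 and 10.9 FPKM, and Ogt, the sugar transferase that binds TET proteins, at 2.29, 2.59, 1.58 and 0.308. With both compounds 1 was higher (Idh3a) and 2 lower (Cxxc5 and Ogt), beside 11.1% and 12.6% of all counted genes. The median was -0.14. Of 12 counted genes of methyl donor supply, 4 were lower with SAHA (Mat2a, Shmt2, Slc19a1 and Shmt1) and 0 higher, beside 16.0% and 7.88% of all counted genes, with a median of -0.75 beside -0.12. Mat2a, which makes the methyl donor S-adenosylmethionine outside normal hepatocytes, was lower in each treated library: 33.8 FPKM under vehicle, 12.6 under ATRA, 6.24 under SAHA and 0.880 under both. It was the only one of the 12 called with ATRA alone, at -1.36, and reached -4.21 with both compounds, where Shmt2 was the other lower gene. With both compounds 12.6% of all counted genes were lower and 11.1% higher, and the methyl donor list's median was -0.41. With ATRA alone 1.20% of all counted genes were lower.

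**Figure D4:**
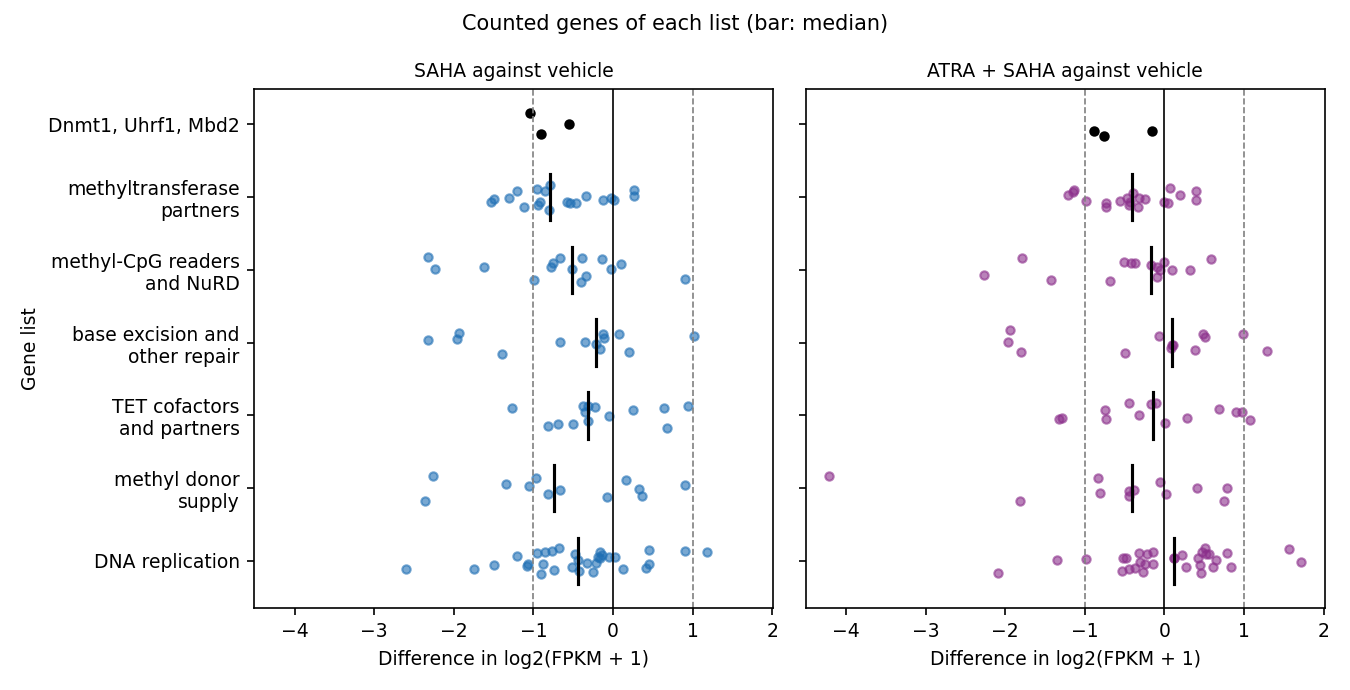
Difference in log2(FPKM + 1) from vehicle (horizontal axis) with SAHA (left) and with both compounds (right) for the counted genes of each list (rows), 1 point per gene (the top row, in black, holds Dnmt1, Uhrf1 and Mbd2), with a bar at the list's median and dashed lines at the 2-fold marks. The methyltransferase partners have a median of -0.80 with SAHA and -0.41 with both; the point at -4.21 on the right is Mat2a.

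Dnmt1 and Uhrf1 are transcribed mainly in dividing cells, so DNA replication genes are given beside them. Mki67, the proliferation marker, was at 27.2 FPKM under vehicle, 23.4 under ATRA, 3.39 under SAHA and 13.7 under both compounds. Pcna, the replication clamp that also binds DNMT1, was at 29.0, 37.2, 28.4 and 20.6 FPKM. Of 35 replication genes 32 were counted, and with SAHA 1 was higher (Gins4, at 1.18) and 6 lower, beside 7.88% and 16.0% of all counted genes. The median was -0.44, and -0.08 after rescaling. The lowest of them were Tk1 (-2.60), the thymidine kinase of S phase, the helicase subunit gene Mcm6 (-1.75) and Rrm2 (-1.49), a subunit of ribonucleotide reductase. Within these 32, 6 had a lower difference than Uhrf1 with SAHA and 13 a lower one than Dnmt1. With both compounds 2 were higher (Gins4 and Rpa1) and 2 lower (Tk1 and Rrm2), beside 11.1% and 12.6% of all counted genes. The list's median was then 0.12 and turned to -0.07 after rescaling, and 3 had a lower difference than Uhrf1. With ATRA alone, 31 of the 32 were above 0 as deposited, while 50.1% of all counted genes were below 0. The list's median was 0.26 beside 0.0 for all counted genes, whose median went to -0.13 after rescaling. Rescaling lowered ATRA levels against vehicle, so list genes near 0, such as Prim1 (0.05) and Rfc4 (0.07), fell below it. The count of 31 therefore holds only as deposited. Uhrf1, at -0.06 as deposited, stood below all but 1 of the 32. The part of proliferation in the Uhrf1 and Dnmt1 values was not tested.

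Germline genes listed as silenced by DNA methylation in somatic cells, and imprinted genes, were looked at as a possible readout. Of 25 germline genes, 22 were under the filter, 17 never reached 0.1 FPKM in any library and 1 (Tex101) was listed at 0 in all 4. Dazl, a germ cell RNA-binding protein, was at 0.00604 to 0.00720 FPKM. Ddx4, a germ cell helicase, was at 0.0172 FPKM under vehicle, 0.0183 under ATRA, 0.0140 under SAHA and 0.0741 under both compounds. Sycp3, a meiotic chromosome protein, was at 0.0882, 0.0843, 0.159 and 0.244 FPKM. Other germline genes were lower with both compounds than with vehicle. Dpep3 went from 0.0285 to 0.00727 FPKM, Stk31 from 0.0268 to 0.0128 and Asz1 from 0.0182 to 0. No direction is read from levels this low. Of the 3 counted genes, Rhox5, an X-linked homeobox gene, was at 0.729 FPKM under vehicle, 0.865 under ATRA, 2.53 under SAHA and 0.484 under both. It passed the filter only through its SAHA value, so its call as higher with SAHA carries no weight. Tuba3a and Tuba3b are near-identical tubulin genes whose reads may be shared, and they were highest with ATRA. At 4.32 and 6.61 FPKM under vehicle, they were not silent in these cells. Of 29 imprinted genes 5 were counted. With SAHA 1 was called lower, Gnas, a G protein gene, beside 16.0% of all counted genes. Gnas was at 111 FPKM under vehicle, 115 under ATRA, 42.0 under SAHA and 70.6 under both. H19 and Igf2, the best-known imprinted pair, were both far below 1 FPKM in every library.

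The genes whose 3 differences from vehicle lay nearest to each of the 8 were sought among about 7955 counted genes, by Euclidean distance in log2(FPKM + 1). For Dnmt1 they were Ecd, Alg9 and Ctdnep1, at 0.0437 to 0.0498. For Uhrf1 they were Ppil1, Plxnb2 and Prrc2b, at 0.0330 to 0.0395. For Mbd2 they were Ripk1, Cebpd and Smek2, at 0.0316 to 0.0447. For Dnmt3a they were Map3k1, Mfhas1 and Lrp5, for Tet2 Clock, Gtf3c2 and Esyt1, and for Tet3 Serinc1, Ccdc6 and Rbm45, on a scale that compresses low genes. Dnmt3b (Ptpn23, Zfp770 and Kif2a) and Tet1 (Sec62, Ptpn23 and Vps13b) lay near genes with almost no difference, since values this low cannot differ on that scale. Within a distance of 0.2 there were 158 genes for Dnmt1, 100 for Uhrf1 and 110 for Mbd2, so likeness over 3 differences picks out no small set.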

How the data were processed

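RNA was rRNA-depleted total RNA from 4 cultures, per the labels' protocols. The submitters' processing notes name Trimmomatic 0.32, a read trimmer, Cuffdiff, which estimates expression, and the build mm10. Which aligner, annotation and strand setting were used, and whether libraries were scaled to each other, was not given in the sources used here. As deposited by the authors, the values are FPKM, 1 column per library, per the file headers, and no read counts were used. Estimated fragments rest on the step by which low values, multiplied by length, repeat over genes with 1 transcript of 1000 to 4000 bases (720 to 848 genes per library). They are approximate, and so are the transcript lengths, which are of GENCODE M21. The estimate leaves uncertain how reads were split between transcripts.

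The 8 genes and the 8 gene lists were chosen with earlier results of these data known. Differences were taken in log2(FPKM + 1) over 8616 rows with a mean of at least 1 FPKM (36.9% of all), and no test was run, since each group has 1 library. The code that applies the 2-fold rule was tested on simulated data, which checks the code and not the rule. Named genes are the 8, up to 3 highest and 3 lowest of a list, and every called gene where 5 or fewer were called. The 3 nearest genes, Pcna, Mki67 and Gm20594 are named too. Chosen after their values were seen were Tdg, Hells, Nsd1, Dnmt3l, Dazl, Ddx4, Sycp3, Dpep3, Stk31, Asz1, H19, Igf2 and the markers named. Alternatives were a pseudocount of 0.1, no filter, a mean of at least 5 FPKM, centring on the median, and rescaling without small RNAs (791 rows) and Gm20594. Starts in the table were taken as counted from 0 and are printed counted from 1. Of the 21431 loci compared with RefSeq, 99.4% overlapped. Without a known strand setting, reads of overlapping antisense genes (Dnmt3aos, Dnmt3bos and others at Tet2 and Tet3) cannot be told apart. Python 3.11.15, pandas 2.3.3 and numpy 2.4.6 were used.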

Additional observations from a re-analysis of the deposited data

Results flagged for a closer look

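Some differences for 1 compound had opposite signs without and with the other. None of these contrasts was tested, since each group is 1 library. ATRA's difference in log2(FPKM + 1) was -0.06 for Uhrf1 without SAHA and 0.16 with it. For Mbd2 it was -0.17 and 0.14. These are small, and after rescaling without small RNAs and Gm20594 both genes were lower in either setting. Gadd45a stood apart more clearly: ATRA's difference was -0.21 without SAHA and 2.42 with it, and SAHA's was -2.32 without ATRA and 0.31 with it. Gadd45g, a related stress gene, had ATRA differences of -0.05 and 1.13, and SAHA differences of -0.13 and 1.04. Rhox5 had ATRA differences of 0.11 and -1.25 and SAHA differences of 1.03 and -0.33, but it passed the filter only through 1 value, 2.53 FPKM in the library with SAHA alone, which sets the differences past 1. The 3 last genes were noticed because at least 1 of their differences reached 1.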

How the results depend on the processing

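No paired analysis was possible because each group has 1 library. The number of the 3 counted genes past 2-fold was 0 with ATRA under every setting tried. With SAHA it was 1 (Uhrf1) and became 0 after centring and 0 after rescaling. With both compounds against vehicle it was 0 and became 1 with a pseudocount of 0.1 and 1 after rescaling (Uhrf1 each time). With a pseudocount of 0.1 and no filter, a setting chosen after seeing the data, all 8 genes enter, and 2 passed with SAHA (Uhrf1 and Dnmt3a), 3 with both compounds (with Tet2) and 1 for both against ATRA (Dnmt3a). By FPKM ratio, also chosen after seeing the data, 4 of 8 passed with SAHA. That count was 1 after rescaling and 2 after centring. For both compounds it was 3, 5 and 4 against vehicle as deposited, rescaled and centred, 0, 3 and 1 against SAHA, and 1, 3 and 3 against ATRA. Calls of listed genes, summed over lists and comparisons, went from 73 to 120 with a pseudocount of 0.1, to 151 with no filter as well, and to 28 with a mean of at least 5 FPKM, where 38 genes were left. Filters and pseudocounts cannot turn the sign of a gene's difference, so only centring and rescaling bear on it. With SAHA, Uhrf1 was at -0.92 and -0.65 under these, Mbd2 at -0.78 and -0.46 and Dnmt1 at -0.43 and -0.11, and the rescaled FPKM ratio of Tet3 was above 1. Depth limits Tet1 and Dnmt3b, at 13 to 29 estimated fragments.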
